A study of Arabidopsis thaliana with 24 samples.

Results

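The genotype by heat interaction asks, for every gene, whether seedlings of the exa1-1 mutant and of wild type (WT, the Col-0 accession of Arabidopsis thaliana) changed by different amounts on a move to 39 °C. For each gene the interaction was the response of exa1, 39 °C minus 23 °C on the log2 scale, minus the same response of WT. It was computed from 12 of the series' 24 libraries, chosen as the columns of the count table whose names end in the temperature. The libraries came from 4 groups of 3, whole seedlings of exa1 at 39 °C, of exa1 at 23 °C, of WT at 39 °C and of WT at 23 °C. All were aged 9 days on a medium of diluted Murashige and Skoog salts with sucrose and were held at their temperature for 60 min, and the remaining 12 libraries of the series belong to a salt experiment. The series text names the 3 libraries of a group independent biological replicates but does not say how plants were divided, so the p-values measure the spread between these libraries. The mutant is 1 line carrying 1 allele, and the tissue was not divided into organs, so that fewer cells of a type and less RNA per cell cannot be told apart.

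EXA1 encodes a plant protein with a GYF domain, a fold that binds proline-rich stretches, and the protein is known to bind cap-binding translation initiation factors, to be needed by some plant viruses and to restrain immune receptors. Heat releases HSFA1 transcription factors from their chaperones, after which genes of heat shock proteins and of further factors such as HSFA2 are transcribed within minutes, while most growth and housekeeping transcripts decline in relative terms. An interaction can arise in either condition. Where the genotypes have the same level at 23 °C, a difference in response is a difference at 39 °C, and where they meet at 39 °C, the difference in response was already there, with the opposite sign, before heat.

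The libraries held 18040604 to 21019628 reads assigned to genes. Levels are given as CPM, the reads of a gene per 1000000 reads of the library, with totals scaled by the trimmed mean of M-values (TMM). The 50 most abundant genes took 22.4% to 25.3% of reads at 39 °C and 10.3% to 11% at 23 °C in either genotype. The TMM factors, which multiply the totals, were 0.721 to 0.748 at 39 °C and 1.343 to 1.391 at 23 °C. Levels and heat responses are therefore relative to the scaled totals, and a gene can be called risen without a larger share of the reads. Genes were called where the adjusted p was below 0.05 over all 21196 genes tested. EXA1 itself (AT5G42950), read first as a check of the labels, had 9.83, 10.8 and 11.2 CPM in exa1 and 102, 136 and 129.8 CPM in WT at 39 °C. At 23 °C it had 12.4, 11.8 and 13.2 CPM in exa1 and 112, 93.7 and 89.97 CPM in WT. Every exa1 library was below every WT library at both temperatures, at 0.0864 of the WT level under heat and 0.127 without it. The log2 interaction of EXA1 was -0.55, with a 95% confidence interval of -0.89 to -0.21 and an adjusted p of 0.0877 by edgeR’s quasi-likelihood test, so it did not pass. Without WT replicate 1 at 39 °C the adjusted p was 0.0255, 0.0471 when no gene was filtered out and 0.0166 when the salt libraries joined the fit.

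Heat changed the transcriptomes of exa1 and WT in much the same way. In exa1, 75.9% of the genes tested passed the test between 39 °C and 23 °C, with 36.3% risen and 39.7% fallen. In WT 75.2% passed, with 36.6% risen and 38.6% fallen. The responses of the genotypes, which share no library, had a Pearson correlation of 0.942 across genes, which are not independent replicates, and the median absolute response was 0.83 in exa1 and 0.80 in WT on the log2 scale. For 79.3% of genes the responses differed by less than 0.5 on the log2 scale. Against that common response, 347 genes passed the interaction test, 1.64% of those tested. Of these, 180 (0.849% of genes tested) had a more positive response in exa1 than in WT and 167 (0.788%) a more negative one, and 94 differed by 2-fold or more. At an unadjusted p below 0.05 there were 3599 genes.

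**Figure D1:**
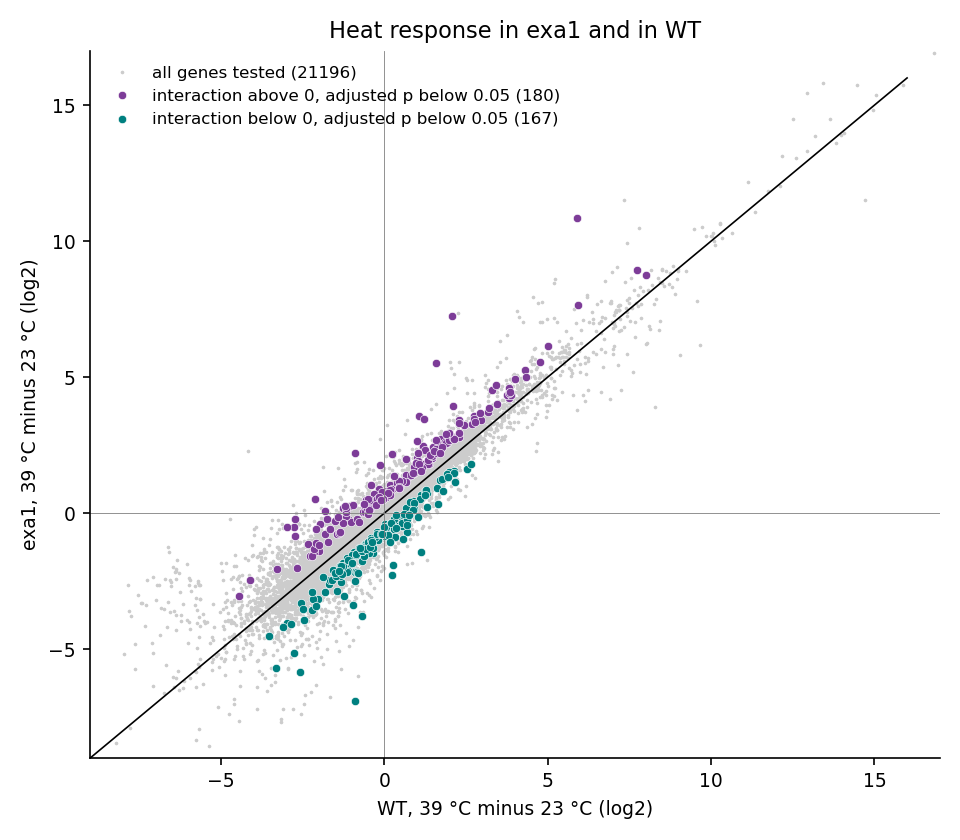
Heat response of each gene in exa1 (vertical axis) against WT (horizontal axis), both as log2 of 39 °C over 23 °C, with the line of equal response. The 180 genes above the line and the 167 genes below it that passed the interaction test are coloured, and 79.3% of the 21196 genes tested lie less than 0.5 above or below the line.

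Most called genes changed in the same direction in both genotypes, as did most genes tested. Over all genes tested, 32.9% rose in both, 34.3% fell in both, 0.0613% rose in exa1 and fell in WT, and 0.0802% did the reverse. Of the 180 genes with a more positive response in exa1, 98 rose in both genotypes, 25 fell in both, 23 rose in exa1 without a call in WT, 26 fell in WT without a call in exa1, and 8 rose in exa1 and fell in WT. Of the 167 genes with a more negative response in exa1, 83 fell in both genotypes, 23 rose in both, 27 fell in exa1 without a call in WT, 22 rose in WT without a call in exa1, and 12 fell in exa1 and rose in WT. The 50 genes with the largest rise in WT held 0 calls, beside 1.64% of all genes, and had a median interaction of 0.14. They were chosen by the WT response, which is subtracted in the interaction, so the choice itself can shift both values. The median over all genes tested was -0.02. The 347 calls kept their sign in all 12 fits that each left out 1 library, and 65 of them passed in all 12. The number of calls moved with single libraries. It was 1481 without WT replicate 3 at 39 °C and 610 without exa1 replicate 1 at 39 °C. It was 155 and 151 without exa1 replicates 2 and 3 at 39 °C, 109, 85 and 128 without exa1 replicates 1, 2 and 3 at 23 °C, 129 without WT replicate 2 at 39 °C, and 99 and 158 without WT replicates 2 and 3 at 23 °C. Genes with a more positive response in exa1 made up 51.9% of the calls under TMM scaling and 63.1% under relative log expression (RLE) size factors.

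The 4 group levels place each of the 347 interactions at the heat level, at the unstressed level or at both. A gene was put at the heat level where the difference between exa1 and WT at 39 °C was at least 2 times as large as at 23 °C on the log2 scale, at the unstressed level in the reverse case, and at both levels otherwise. By this rule 216 genes (62.2%) differed chiefly at 39 °C, 93 with exa1 above WT in response and 123 below. There were 41 genes (11.8%) that differed chiefly at 23 °C, 27 with a more positive and 14 with a more negative response in exa1. The other 90 (25.9%) had fitted differences of opposite sign, 60 with exa1 higher at 39 °C and lower at 23 °C and 30 the reverse. Of these 90, 63 passed the genotype test at 39 °C, 37 at 23 °C and 18 at both, so the order of the genotypes was not shown to turn round for most. The rule put no called gene at both levels in the same direction, although 8 of the heat-level genes passed the genotype test at both temperatures. With a size ratio of 3 in place of 2 the numbers were 181, 32 and 130, and 4 genes were then put at both levels in the same direction. When the levels were told apart by their own tests instead, 253 genes passed at 39 °C alone, 59 at 23 °C alone, 27 at both and 8 at neither. These tests use the libraries of the interaction itself, and over all genes 15.5% passed between genotypes at 39 °C, 7.45% higher and 8.03% lower in exa1. At 23 °C 7.54% passed, 3.28% higher and 4.26% lower in exa1.

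**Figure D2:**
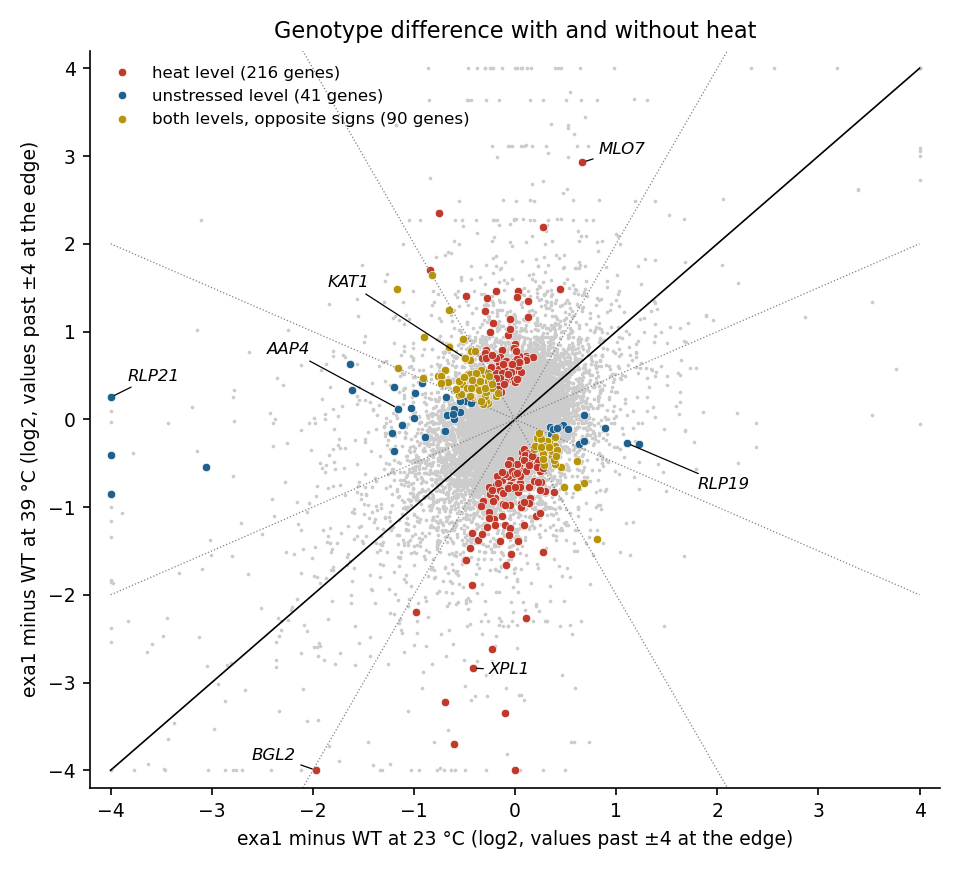
Difference between exa1 and WT at 39 °C (vertical axis) against the same difference at 23 °C (horizontal axis), both log2, for all genes tested (grey) and the called genes by class. Genes on the solid line have no interaction, the dotted lines mark a size ratio of 2, and the 216 heat-level genes run up and down the centre while the 41 unstressed-level genes run along the horizontal axis.

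XPL1 fell further under heat in exa1 than in WT. XPL1 (AT3G18000) encodes a methyltransferase of phosphoethanolamine, a step in the synthesis of phosphatidylcholine. It had 4.12, 3.3 and 3.15 CPM in exa1 and 31.8, 20.9 and 22.9 CPM in WT at 39 °C, and 39.4, 37.8 and 33.8 CPM in exa1 and 42.7, 51.8 and 54.2 CPM in WT at 23 °C. The exa1 and WT libraries were apart at either temperature, as were those of 28.2% of all genes at 39 °C and 32.3% at 23 °C, but exa1 stood at 0.14 of the WT level under heat against 0.747 without heat. The log2 interaction was -2.41 ± 0.22 (SE), with an adjusted p of 1.64e-05 by edgeR’s quasi-likelihood test, and XPL1 passed in all 12 fits that left out a library, with adjusted p at most 0.000782. The 250 bases before the annotated start of XPL1 (chr3:6154113-6154362, plus strand, TAIR10.1) are given with those of MLO7, which had the smallest adjusted p of the named genes with a positive interaction (chr2:7567768-7568017, plus strand). Capitals mark W-boxes, searched as TTGACC or TTGACT on both strands, which WRKY transcription factors bind.
XPL1: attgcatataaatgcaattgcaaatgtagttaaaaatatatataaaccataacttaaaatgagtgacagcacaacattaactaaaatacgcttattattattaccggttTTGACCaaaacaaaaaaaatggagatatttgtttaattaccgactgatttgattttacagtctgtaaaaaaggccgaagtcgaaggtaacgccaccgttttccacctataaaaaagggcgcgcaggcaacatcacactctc
MLO7: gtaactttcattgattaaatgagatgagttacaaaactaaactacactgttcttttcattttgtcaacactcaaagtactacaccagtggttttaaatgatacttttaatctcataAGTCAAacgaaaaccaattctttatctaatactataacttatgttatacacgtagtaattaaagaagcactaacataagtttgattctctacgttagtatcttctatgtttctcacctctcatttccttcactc
Each window holds 1 W-box, as do 28.1% of all promoters of this length among the genes tested, and neither holds a G-box or a heat shock element.

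MLO7 (AT2G17430) encodes a membrane protein of the MLO family, whose founding barley member governs susceptibility to powdery mildew. At 39 °C it had 3.99, 6.66 and 5.85 CPM in exa1 and 0.616, 0.738 and 0.806 CPM in WT, and at 23 °C 8.13, 7.81 and 7.7 CPM in exa1 and 5.32, 4.68 and 4.93 CPM in WT. The log2 heat response of MLO7 was -0.52 in exa1 and -2.78 in WT. The log2 interaction was 2.27 ± 0.31 (SE), with an adjusted p of 0.00221 by edgeR’s quasi-likelihood test. XRCC3 (AT5G57450), a protein of DNA repair, rose in both genotypes and further in exa1, with 7.49, 7.72 and 9.75 CPM in exa1 and 3.35, 3.25 and 2.93 CPM in WT under heat. Without heat its libraries overlapped, at 0.996, 1.48 and 1.47 CPM in exa1 and 1.8, 1.76 and 1.27 CPM in WT. WT libraries held 49, 44 and 40 reads of XRCC3 at 39 °C and 50, 47 and 37 at 23 °C, so the rise in WT depended largely on the scaling of totals. The log2 interaction of XRCC3 was 1.67 ± 0.32 (SE) with an adjusted p of 0.0135 by the same edgeR test. MLO7 and XRCC3 passed in all 12 fits that left out a library.

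NUDT6, BGL2 and WRKY72, each with a known role in immunity, had interactions of negative sign. NUDT6 (AT2G04450), a nudix hydrolase that acts on ADP-ribose and NADH and is tied to salicylic acid signalling, had 1.31, 0.594 and 0.45 CPM in exa1 and 6.3, 6.2 and 9.74 CPM in WT at 39 °C. At 23 °C the genotypes overlapped, with 2.19, 2.74 and 1.39 CPM in exa1 and 4.81, 2.81 and 2.63 CPM in WT. Its log2 response was -1.41 in exa1 and 1.11 in WT, and the interaction was -2.53 ± 0.50 (SE) with an adjusted p of 0.0176 by edgeR. WT libraries held 92, 84 and 133 reads of NUDT6 at 39 °C and 134, 75 and 77 at 23 °C. The rise in WT thus depended largely on the scaling of totals. BGL2 (AT3G57260), the beta-1,3-glucanase also known as PR2 and a marker of salicylic acid defence, had 0.206, 0.264 and 0.375 CPM in exa1 and 6.78, 4.06 and 8.13 CPM in WT at 39 °C and 1.43, 1.74 and 0.929 CPM in exa1 and 7.43, 3.93 and 4.76 CPM in WT at 23 °C. The exa1 libraries lay below all WT libraries at both temperatures, at 0.045 of the WT level under heat and 0.256 without it, and the log2 interaction of -2.51 ± 0.58 (SE) had an adjusted p of 0.0366 by edgeR. BGL2 passed in 4 of the 12 fits that left out a library, and the exa1 libraries held 3, 4 and 5 of its reads at 39 °C. On FPKM values limma-trend gave BGL2 an interaction of -0.44 (adjusted p = 0.469) with a pseudocount of 1 and -1.81 (adjusted p = 0.0756) with 0.1. WRKY72 (AT5G15130), a transcription factor of basal immunity, averaged 0.592 ± 0.293 CPM in exa1 and 2.18 ± 0.353 CPM in WT at 39 °C, and 9.0 ± 0.444 CPM in exa1 and 12.1 ± 0.458 CPM in WT at 23 °C (SD, n = 3 each). It fell in both genotypes, and the log2 difference between the falls was -1.47 (adjusted p = 0.0367, edgeR). The exa1 libraries held 10, 4 and 11 reads of WRKY72 at 39 °C. With limma-trend its interaction was -0.17 (adjusted p = 0.582) at a pseudocount of 1 and -1.11 (adjusted p = 0.128) at 0.1.

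MAKR6, HB30 and BBX15 also fell further in exa1 than in WT. MAKR6 (AT5G52900), a member of the membrane-associated kinase regulators, had 0, 0.198 and 0.075 CPM in exa1 and 1.51, 0.591 and 0.879 CPM in WT at 39 °C against 5.7, 6.07 and 5.15 CPM in exa1 and 5.21, 5.81 and 7.08 CPM in WT at 23 °C. With 4 reads over the exa1 libraries under heat, its interaction of -3.25 ± 0.67 (SE) rests on few reads, and the genotypes overlapped only at 23 °C. For MAKR6 limma-trend on FPKM values gave -0.43 (adjusted p = 0.28) at a pseudocount of 1 and -1.92 (adjusted p = 0.0619) at 0.1. HB30 (AT5G15210), a zinc finger homeodomain transcription factor, had 1.44, 1.45 and 1.88 CPM in exa1 and 5.96, 4.58 and 3.22 CPM in WT at 39 °C and 24.3, 26 and 23.2 CPM in exa1 and 23.2, 25.7 and 26.5 CPM in WT at 23 °C, an interaction of -1.5 (adjusted p = 0.00842, edgeR). BBX15 (AT1G25440), a B-box zinc finger protein with a CCT domain, had 10.4, 13.5 and 8.18 CPM in exa1 and 19.6, 20.2 and 27.8 CPM in WT at 39 °C. At 23 °C it had 112, 123 and 106 CPM in exa1 and 86.1, 104 and 96.6 CPM in WT, a difference that did not pass (adjusted p = 0.269, edgeR), and the interaction was -1.32 (adjusted p = 0.00574, edgeR). HB30 and BBX15 passed in all 12 fits that left out a library, MAKR6 in 9, NUDT6 in 8 and WRKY72 in 4. GSTU2 (AT2G29480), a glutathione S-transferase of the tau class, differed in being induced: its log2 response was 0.34 in exa1 and 1.64 in WT, an interaction of -1.3 (adjusted p = 0.0489, edgeR), and it passed in 3 of those 12 fits. GSTU2 overlaps a gene on the other strand, and since the strand setting of the counting is not given in the sources used here, reads from the pair cannot be told apart.

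**Figure D3:**
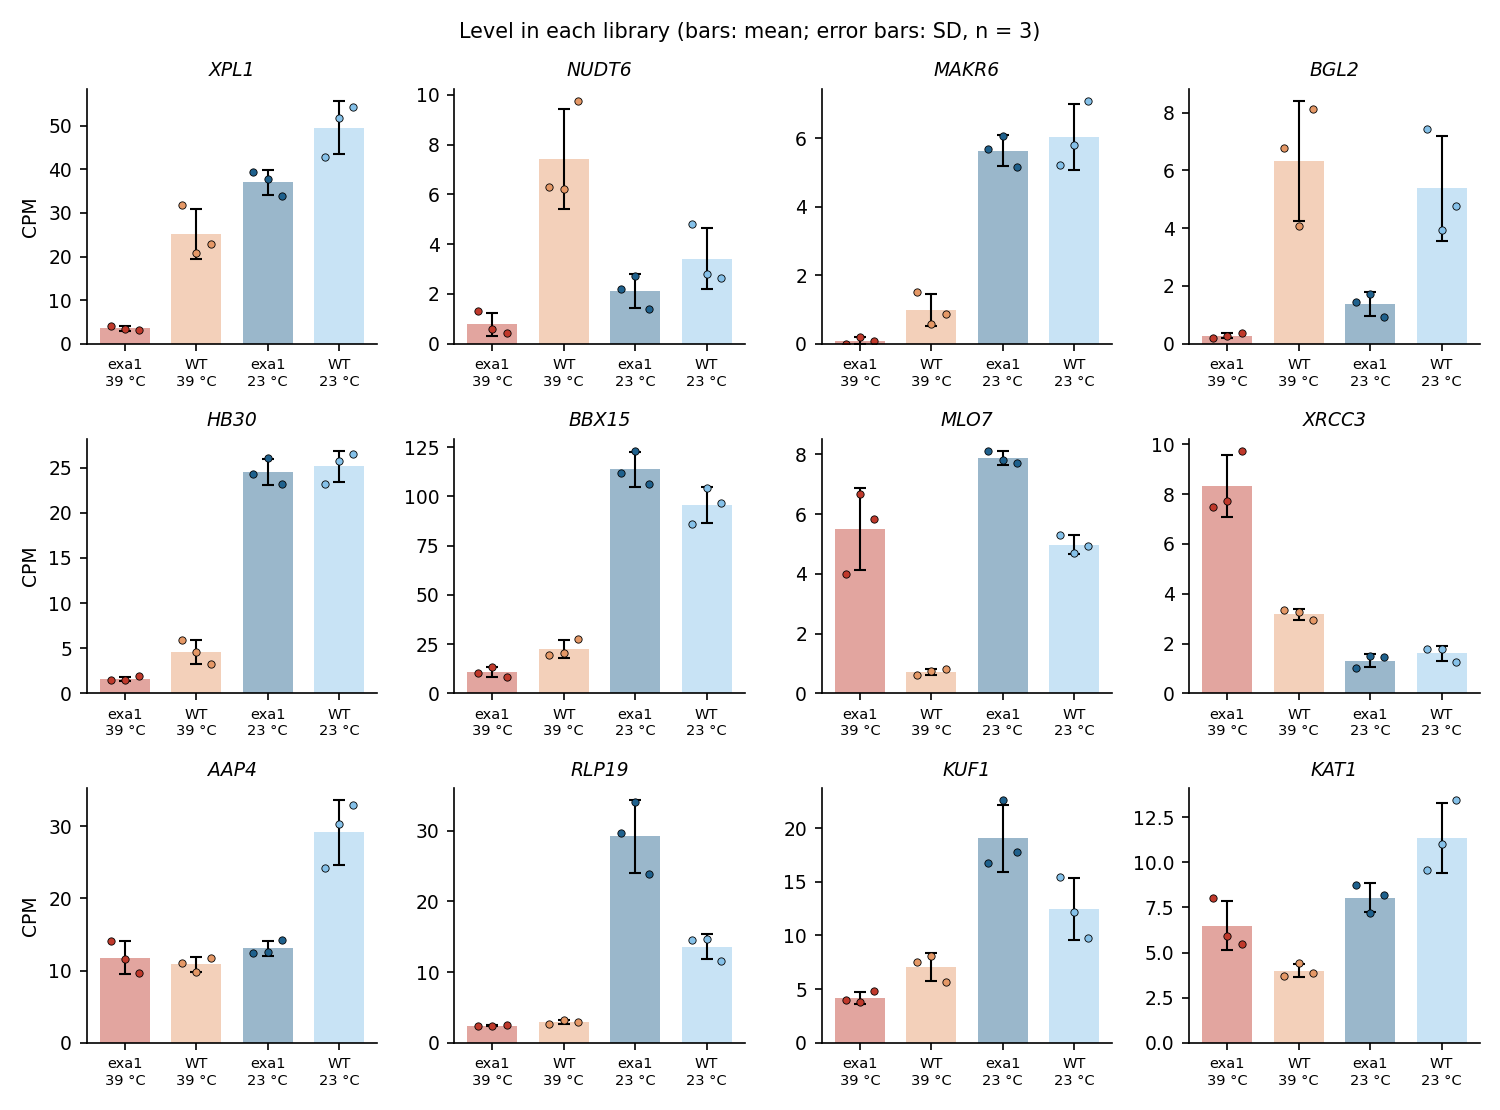
CPM of 12 genes in every library, with exa1 at 39 °C, WT at 39 °C, exa1 at 23 °C and WT at 23 °C from left to right in each panel. Bars are means and error bars SD (n = 3), points are libraries, and each panel has its own axis starting at 0. XPL1, NUDT6, MAKR6, BGL2, HB30 and BBX15 separate at 39 °C, and of these XPL1, BGL2 and BBX15 are also apart at 23 °C, by less on the log2 scale. AAP4 and RLP19 separate chiefly at 23 °C, and KUF1 and KAT1 turn their order round.

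At the unstressed level the genotypes differed more before heat than under it. AAP4 (AT5G63850), an amino acid permease, had 14.2, 11.6 and 9.6 CPM in exa1 and 11.1, 9.75 and 11.7 CPM in WT at 39 °C, where the libraries overlapped. At 23 °C it had 12.4, 12.5 and 14.3 CPM in exa1 and 24.2, 30.2 and 32.9 CPM in WT, with every exa1 library below every WT library. The log2 response was -0.15 in exa1, and in WT AAP4 fell by 1.42. The log2 interaction was 1.28 ± 0.20 (SE), with an adjusted p of 0.00455 by edgeR’s quasi-likelihood test. RLP19 (AT2G15080), a receptor-like protein, was the reverse case, with 2.41, 2.44 and 2.48 CPM in exa1 and 2.6, 3.25 and 3.0 CPM in WT at 39 °C and 29.6, 34.1 and 23.8 CPM in exa1 and 14.5, 14.7 and 11.6 CPM in WT at 23 °C. Its interaction was -1.37 (adjusted p = 0.012, edgeR), and the log2 difference of exa1 from WT was -0.27 at 39 °C and 1.1 at 23 °C. AAP4 and RLP19 passed in all 12 fits that left out a library.

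RLP21 (AT2G25470), another receptor-like protein, had the largest fitted interaction of the named genes. Its levels were 13.3, 10.9 and 9.75 CPM in exa1 and 11, 9.82 and 7.76 CPM in WT at 39 °C, where the genotypes overlapped, and 0, 0 and 0 CPM in exa1 and 0.144, 0.112 and 0.205 CPM in WT at 23 °C. Since no exa1 library had a read at 23 °C, the fitted value depends on the prior count. On FPKM values limma-trend gave an interaction of 0.28 (adjusted p = 0.364) with a pseudocount of 1 and 0.99 (adjusted p = 0.173) with 0.1, and the call was lost. Against a floor of 3 reads over the group, the exa1 level was at least 295-fold higher at 39 °C than at 23 °C, and at 23 °C at least 4.03-fold lower than in WT. ABCC7 (AT3G13100), a transporter of the multidrug resistance-associated type, averaged 6.51 ± 0.699 CPM in exa1 and 4.91 ± 1.11 CPM in WT at 39 °C and 1.66 ± 0.166 CPM in exa1 and 3.13 ± 0.796 CPM in WT at 23 °C, and its interaction was 1.32 (adjusted p = 0.0399, edgeR). ASY1 (AT1G67370), a protein of the meiotic chromosome axis, averaged 11.9 ± 1.04 CPM in exa1 and 9.62 ± 0.905 CPM in WT at 39 °C, and 0.446 ± 0.145 CPM in exa1 and 0.894 ± 0.0604 CPM in WT at 23 °C (SD, n = 3 each). It rose under heat in both genotypes, with an interaction of 1.29 (adjusted p = 0.0486, edgeR). ABCC7 shares sequence with a neighbouring gene on its own strand and ASY1 with one on the other strand, so both values are uncertain. RLP21, ABCC7 and ASY1 passed in 4, 4 and 2 of the 12 fits that left out a library.

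Among genes with fitted differences of opposite sign at the 2 temperatures, KAT1 (AT5G46240), the inward potassium channel of guard cells, had 8.04, 5.94 and 5.48 CPM in exa1 and 3.7, 4.43 and 3.88 CPM in WT at 39 °C. At 23 °C it had 8.77, 7.18 and 8.2 CPM in exa1 and 9.59, 11 and 13.4 CPM in WT. The libraries of the genotypes were apart at both temperatures in opposite directions, with an adjusted p of 0.018 at 39 °C and 0.0505 at 23 °C by edgeR, and the log2 response of KAT1 was -0.31 in exa1 and -1.5 in WT. The interaction was 1.2 ± 0.25 (SE), adjusted p 0.0184 by edgeR. MYB48 (AT3G46130), a MYB transcription factor, followed the same pattern, with 7.21 ± 1.1 CPM in exa1 and 4.23 ± 1.54 CPM in WT at 39 °C and 30.4 ± 1.97 CPM in exa1 and 41.1 ± 4.83 CPM in WT at 23 °C (SD, n = 3 each). KUF1 (AT1G31350), an F-box protein of the karrikin pathway, was the mirror image, with 3.99, 3.76 and 4.8 CPM in exa1 and 7.53, 8.12 and 5.64 CPM in WT at 39 °C and 16.8, 22.6 and 17.8 CPM in exa1 and 15.4, 12.1 and 9.72 CPM in WT at 23 °C. Its interaction was -1.38 (adjusted p = 0.0138, edgeR), against 1.21 for MYB48 (adjusted p = 0.0161, edgeR). BGLU33 (AT2G32860), a beta-glucosidase, and ENODL16 (AT3G01070), an early nodulin-like protein, had interactions of 1.39 and 1.26. BGLU33 fell in both genotypes, with log2 responses of -3.06 in exa1 and -4.45 in WT, and ENODL16 rose in both, by 4.54 in exa1 and 3.28 in WT. The libraries of BGLU33 overlapped at 39 °C and those of ENODL16 at 23 °C, so neither changed its order in every library. MYB48 and KUF1 passed in 11 of the 12 fits that left out a library, KAT1 in 10, BGLU33 in 9 and ENODL16 in 5.

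The lists of small heat shock proteins and of large chaperones held 1 call each. Over the lists of known genes, 12 of 341 distinct loci tested passed (3.52%), beside 1.64% of all genes tested. Of 15 small heat shock protein genes, which bind unfolding proteins, 1 passed, AT4G21870, whose product is annotated as an HSP20-like chaperone. This gene was not induced: it had 6.32, 4.48 and 6.83 CPM in exa1 and 17, 13.4 and 10.7 CPM in WT at 39 °C and 14.2, 13.9 and 15.1 CPM in exa1 and 17.9, 18 and 16.5 CPM in WT at 23 °C, an interaction of -0.95 (adjusted p = 0.0366, edgeR). The list's median interaction was -0.08, with members from -1.36 to 1.28, and 5 of the 15 had an unadjusted p below 0.05. Of 23 large chaperones and co-chaperones, 1 passed, Hsp89.1 (AT3G07770), a mitochondrial member of the HSP90 family. It had 377, 495 and 453 CPM in exa1 and 257, 288 and 313 CPM in WT at 39 °C and 31.4, 30.9 and 29.4 CPM in exa1 and 26.6, 33.8 and 33.5 CPM in WT at 23 °C. Heat thus raised Hsp89.1 in both genotypes and 0.66 further in exa1 on the log2 scale (adjusted p = 0.0342, edgeR), with the libraries apart at 39 °C and overlapping at 23 °C. Hsp89.1 passed in 4 and AT4G21870 in 3 of the 12 fits that left out a library. The list of large chaperones had a median of 0.16, against -0.02 over all genes tested, and 5 of its 23 members had an unadjusted p below 0.05. At 39 °C 6 of its members were higher in exa1 and 2 lower, beside 7.45% and 8.03% of all genes. None of 23 heat shock and related transcription factors passed the edgeR test at an adjusted p below 0.05, and the median was 0.10. The unadjusted p was below 0.05 for 3 of them, beside 3599 of 21196 over all genes. None of 23 genes of the endoplasmic reticulum unfolded protein response passed either, with 6 below 0.05 unadjusted and a median of 0.11.

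For heat markers without a call, the confidence interval gives an approximate range for the difference in response. HSP101 (AT1G74310), the disaggregase needed for acquired thermotolerance, had 13474, 12852 and 13135 CPM in exa1 and 13942, 12189 and 11141 CPM in WT at 39 °C and 11, 10.7 and 12.3 CPM in exa1 and 12.1, 11.5 and 12.3 CPM in WT at 23 °C. The 95% confidence interval of its log2 interaction was -0.13 to 0.45. HSP90.1 (AT5G52640), the inducible cytosolic HSP90, averaged 13151 ± 773 CPM in exa1 and 12680.2 ± 1067 CPM in WT at 39 °C, with an interval of -0.09 to 0.59. HSFA2 (AT2G26150), the factor that prolongs the heat response, averaged 8153 ± 450.2 CPM in exa1 and 9366 ± 1645 CPM in WT, with 0.796 ± 0.0822 CPM in exa1 and 1.17 ± 0.378 CPM in WT without heat (SD, n = 3 each), and its interval was -0.28 to 1.01. MBF1C, a transcriptional coactivator, had an interval of -0.42 to 0.61. HSP21, the small chaperone of plastids, had -1.21 to 0.77, from 3 to 5 reads in each 23 °C library. Hsp70-2 (AT5G02490) differed in level at both temperatures, and its interaction did not pass. It had 124, 112 and 114 CPM in exa1 and 269.8, 235 and 257 CPM in WT at 39 °C and 5.3, 4.66 and 4.76 CPM in exa1 and 9.45, 12.3 and 14.3 CPM in WT at 23 °C, so that exa1 was at 0.459 of the WT level under heat and 0.409 without it, and the interval of the interaction was -0.17 to 0.51. HSP101 and MBF1C each overlap a gene on the other strand.

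Abscisic acid and drought genes had the highest share of calls among the lists, 4 of 24 tested beside 1.64% of all genes, and the rule above put all 4 at the unstressed level. GolS1 (AT2G47180), a galactinol synthase of raffinose synthesis and a known heat shock factor target, had 2990.1, 2851 and 2848 CPM in exa1 and 2555, 2474 and 2463 CPM in WT at 39 °C and 7.01, 6.73 and 6.27 CPM in exa1 and 9.63, 9.93 and 9.72 CPM in WT at 23 °C. Its libraries were apart at both temperatures, exa1 being at 1.16 times the WT level under heat and 0.684 without it. The log2 interaction was 0.76 ± 0.12 (SE), with an adjusted p of 0.00369 by edgeR’s quasi-likelihood test, and it passed in all 12 fits that left out a library. HAI1 (AT5G59220), a clade A protein phosphatase 2C that acts on abscisic acid signalling, had 22.2, 22.1 and 16.6 CPM in exa1 and 13.8, 20.1 and 22.1 CPM in WT at 39 °C and 1.95, 1.74 and 1.97 CPM in exa1 and 3.84, 4.31 and 3.46 CPM in WT at 23 °C. Heat brought both genotypes to overlapping levels, and the interaction was 1.16 (adjusted p = 0.0285, edgeR). COR47, a dehydrin, had an interaction of 0.56 (adjusted p = 0.0405, edgeR), with a genotype difference of -0.14 at 39 °C and -0.70 at 23 °C. RD22 (AT5G25610), a dehydration-induced BURP domain protein, went the other way. It had 50.8, 61.1 and 59.7 CPM in exa1 and 50.6, 56.3 and 59.1 CPM in WT at 39 °C and 58.4, 64.7 and 55 CPM in exa1 and 35.6, 36.9 and 38.5 CPM in WT at 23 °C, an interaction of -0.63 (adjusted p = 0.0193, edgeR). RD22 passed in 8 and HAI1 in 7 of the 12 fits that left out a library. Of the list, 15 members had an interaction above 0 and 9 below, with a median of 0.28. At 23 °C alone, 8 members were lower in exa1 and 2 higher, and at 39 °C 1 was lower and 2 higher, with 7.54% of all genes called at 23 °C and 15.5% at 39 °C. GolS1 overlaps a gene on the other strand.

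GolS1 and HSFA2, the only named genes with a heat shock element in this window, are shown by their 250 bases before the annotated start. Both are strongly heat-induced, while GolS1 alone of the pair passed the interaction test (GolS1 at chr2:19370479-19370728, minus strand, and HSFA2 at chr2:11135374-11135623, plus strand, TAIR10.1). Capitals mark heat shock elements, searched as 3 alternating units of GAA and TTC with 2 bases between units, and G-boxes, searched as CACGTG, on both strands.
GolS1: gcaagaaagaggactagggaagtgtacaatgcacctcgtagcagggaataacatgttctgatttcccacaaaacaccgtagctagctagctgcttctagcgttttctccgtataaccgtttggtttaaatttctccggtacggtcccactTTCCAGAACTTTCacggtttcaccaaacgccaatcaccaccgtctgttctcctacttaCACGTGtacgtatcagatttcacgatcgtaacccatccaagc
HSFA2: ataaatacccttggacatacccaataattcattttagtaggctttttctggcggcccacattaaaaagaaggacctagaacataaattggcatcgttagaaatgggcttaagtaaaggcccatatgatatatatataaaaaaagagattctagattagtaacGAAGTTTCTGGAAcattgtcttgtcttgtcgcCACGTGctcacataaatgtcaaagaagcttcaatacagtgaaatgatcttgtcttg
Each window holds 1 heat shock element and 1 G-box. The windows of HSP101, HSP90.1, HSP21, MBF1C and Hsp70-2, which also rose under heat in both genotypes, hold 0 such heat shock elements. Over all 21109 promoters of genes tested, 0.441% hold such a heat shock element, and among the 50 largest WT heat responses 6 of 50 do. Among called genes, 3 of 180 promoters with a more positive response in exa1 (1.67%) and 1 of 167 with a more negative one (0.599%) hold one. W-boxes stand in 30.6% and 34.7% of these promoters, beside 28.1% over all, and G-boxes in 5.0% and 6.59%, beside 7.18% over all. A match gives only that these letters are in the window.

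In the salicylic acid list, 17 of 26 members were lower in exa1 at 39 °C, beside 8.03% of all genes, and 12 at 23 °C, beside 4.26%, and none passed as higher at either temperature. BGL2 alone passed the interaction test, 1 of 26 beside 1.64% of all genes. The list's median interaction was -0.24, with 7 of 26 members above 0 and 19 below. WRKY70 (AT3G56400), a transcription factor between the salicylic acid and jasmonate pathways, had 4.12, 2.37 and 3.83 CPM in exa1 and 19.4, 18.9 and 13.1 CPM in WT at 39 °C and 9.88, 18.6 and 9.17 CPM in exa1 and 18.7, 31.1 and 33.8 CPM in WT at 23 °C. All exa1 libraries were below all WT libraries at both temperatures, and the interaction of -1.18 had a 95% confidence interval of -2.23 to -0.12 and an adjusted p of 0.238 by edgeR. PR1, the secreted marker of systemic resistance, and PAD4, the lipase-like partner of EDS1, had intervals of -1.66 to 0.66 and -1.13 to 0.05. Of 12 camalexin and indole genes none passed the interaction test in edgeR, 3 had an unadjusted p below 0.05, and 9 were lower in exa1 at 39 °C and 9 at 23 °C. The 21 NLR immune receptor genes held no call by edgeR, 6 at an unadjusted p below 0.05, and had a median of 0.00. Over all genes, 3599 of 21196 had an unadjusted p below 0.05.

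In the jasmonate list 1 of 30 members passed the interaction test, beside 1.64% of all genes. This was JAZ6 (AT1G72450), a repressor of jasmonate signalling. It had 4.33, 3.96 and 3.98 CPM in exa1 and 12.1, 12.5 and 7.18 CPM in WT at 39 °C and 16.4, 17.2 and 19.7 CPM in exa1 and 21.2, 23.6 and 24 CPM in WT at 23 °C. The genotypes were apart at both temperatures and further apart under heat, with an interaction of -1.0 (adjusted p = 0.0357, edgeR). JAZ6 passed in 2 of the 12 fits that left out a library. PDF1.2, a defensin downstream of jasmonate and ethylene, was higher in exa1 throughout, at 29.7 ± 6.28 CPM in exa1 and 4.83 ± 0.345 CPM in WT at 39 °C and 25.9 ± 3.79 CPM in exa1 and 2.45 ± 1.7 CPM in WT at 23 °C (SD, n = 3 each). The interval of its interaction was -1.93 to 0.38. Among 23 early stress transcription factors 1 passed, again beside 1.64% of all genes. This was STZ (AT1G27730), the zinc finger repressor also known as ZAT10. It had 17.6, 21.5 and 17.9 CPM in exa1 and 20.8, 17.6 and 17.8 CPM in WT at 39 °C and 2.75, 2.66 and 2.21 CPM in exa1 and 4.17, 5.47 and 5.58 CPM in WT at 23 °C, so that the genotypes overlapped under heat and were apart without it. The interaction of STZ was 1.02 ± 0.21 (SE) with an adjusted p of 0.0199 by edgeR, and it passed in 6 of the 12 fits that left out a library.

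Of 27 light harvesting and carbon fixation genes, 18 were lower in exa1 than in WT at 39 °C, beside 8.03% of all genes, and 10 at 23 °C, beside 4.26%. LHCB5 (AT4G10340), a minor antenna protein of photosystem II, had 3141, 3219 and 3318 CPM in exa1 and 4724, 4922 and 4289 CPM in WT at 39 °C and 1203, 1155 and 1184 CPM in exa1 and 1223, 1320.2 and 1125 CPM in WT at 23 °C. It was the 1 member of 27 to pass the interaction test, beside 1.64% of all genes. Its interaction was -0.48 (adjusted p = 0.0423, edgeR), and it passed in 1 of the 12 fits that left out a library. The list's median was -0.24, with 7 of 27 members above 0 and 20 below. At 23 °C 1 member was higher in exa1. The marker LHCB3 (AT5G54270) averaged 833 ± 91.4 CPM in exa1 and 1796 ± 246 CPM in WT at 39 °C. At 23 °C it averaged 126 ± 15.5 CPM in exa1 and 221 ± 18.2 CPM in WT (SD, n = 3 each). Its interaction of -0.30 did not pass (adjusted p = 0.338, edgeR), with a 95% confidence interval of -0.62 to 0.03. LHCB3 overlaps a gene on the other strand. Summed over the list, exa1 libraries held 75309 to 82986 CPM and WT libraries 96955 to 116523 CPM at 39 °C, and exa1 32089 to 33379 CPM and WT 32441 to 37231 CPM at 23 °C. Root marker genes, read for the share of root in the seedlings, summed to 78.8 to 83.7 CPM in exa1 and 81.5 to 98.4 CPM in WT at 39 °C, and to 215 to 218 CPM in exa1 and 239 to 261 CPM in WT at 23 °C. The part of organ proportions in the results was not tested. Of 19 root markers 1 passed the interaction test, beside 1.64% of all genes. This was EIR1 (AT5G57090), the root auxin exporter PIN2, with 7.35, 8.64 and 7.8 CPM in exa1 and 6.44, 4.21 and 5.05 CPM in WT at 39 °C and 18.8, 17.3 and 17.6 CPM in exa1 and 20.4, 19.1 and 23.6 CPM in WT at 23 °C. Its interaction was 0.83 (adjusted p = 0.0417, edgeR), and it passed in 3 of the 12 fits that left out a library.

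Of 10 darkness and sugar starvation genes 1 passed the interaction test, beside 1.64% of all genes. This was TPS11 (AT2G18700), a trehalose phosphate synthase-like protein. It had 51.4, 50.7 and 54.2 CPM in exa1 and 61.4, 84.3 and 86.1 CPM in WT at 39 °C and 123, 129 and 119 CPM in exa1 and 134, 120.1 and 121 CPM in WT at 23 °C, an interaction of -0.56 (adjusted p = 0.0496, edgeR), with overlap at 23 °C only. TPS11 passed in 2 of the 12 fits that left out a library. Auxin and growth genes held no call among 26 tested by edgeR, with 1 at an unadjusted p below 0.05, beside 3599 of 21196 over all genes. Of these 26, 9 were lower in exa1 at 39 °C, beside 8.03% of all genes, and 12 at 23 °C, beside 4.26%. IAA19, an auxin-induced repressor, had a 95% confidence interval of -1.21 to 0.19, and IAA29 one of -1.3 to 3.7, the widest of the markers, from at most 6 reads in any 39 °C library. The 21 clock genes had no call by edgeR, 8 below 0.05 unadjusted, and a median of 0.10. The 9 peroxide and superoxide enzymes and the 10 cap-binding and translation initiation genes had none either, with 2 and 0 at an unadjusted p below 0.05.

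Of 157 cytosolic ribosomal protein genes tested, 130 had an interaction below 0 and 27 above, with a median of -0.12 under TMM and -0.09 under RLE size factors, against -0.02 and 0.01 over all genes. Only AT3G09200 passed, at -0.39 (adjusted p = 0.0489, edgeR), 1 of 157 beside 1.64% of all genes. At 39 °C 7 members were higher in exa1 and 2 lower, and at 23 °C 45 were higher and 0 lower, beside 7.45% of all genes higher at 39 °C and 3.28% at 23 °C. None of 58 plastid-encoded and 28 mitochondrion-encoded genes passed by edgeR, with 7 and 0 at an unadjusted p below 0.05, beside 3599 of 21196 over all genes.

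**Figure D4:**
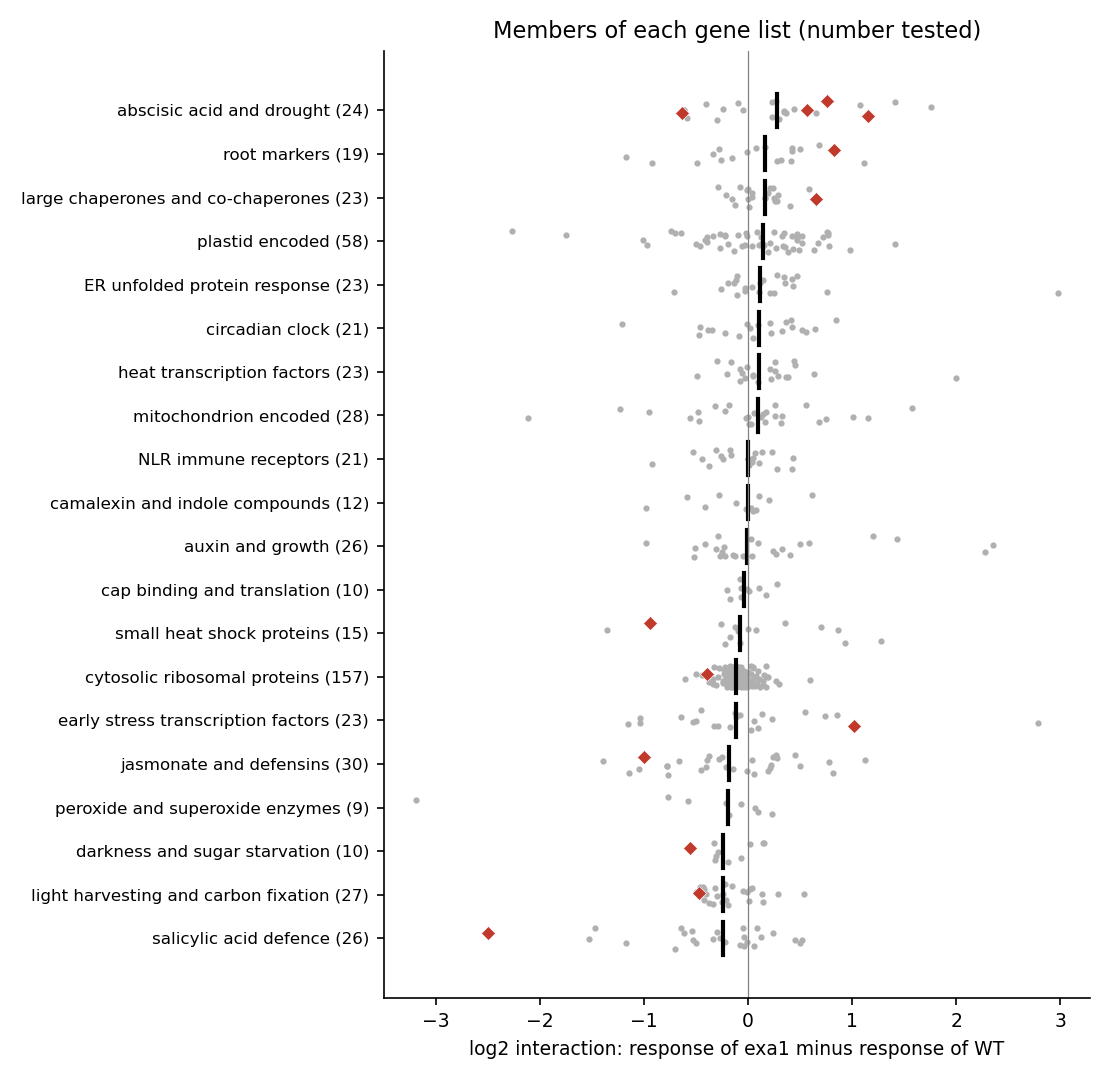
Log2 interaction of each tested member of the gene lists, with the median of each list as a black bar, the number tested in parentheses and members past the test as red diamonds. Most members lie within 1 of 0, list medians run between -0.24 and 0.28, and no list has more than 4 called members.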

How the data were processed

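The deposited count table gives whole read counts per gene for 32833 genes, as its values show, and was used for all main tests. The deposited FPKM table, scaled by gene length and depth, was used in alternatives only. Per the submitters' processing notes, the tools were HISAT2 2.0.4 and HTSeq 0.6.1p1 on the TAIR10 build. Libraries were strand-specific per the labels' protocols, but the strand setting of the counting is not given in the sources used here. Intervals of counts cover counting error and the spread between libraries as the model estimates them. Each SE was taken as the absolute log2 value over the square root of the F statistic of its test. The intervals were built from these SEs, so both are approximate.

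The 12 libraries were fitted together in edgeR 4.0.16 (R 4.3.3) with TMM scaling, filterByExpr and a robust quasi-likelihood model with 8 residual degrees of freedom, leaving 21196 genes, and p-values were adjusted by Benjamini-Hochberg. The fit was tested on simulated data. Gene lists were described by counts and medians without a set test. Members and lists were chosen with earlier results of these data known. Of 363 list entries, 11 were dropped because the annotation gives another symbol. Gene names, promoters and overlaps come from the RefSeq annotation of TAIR10.1, which 32548 loci matched. Among the named genes none had a copy with 95% identity over 150 bases (blastn 2.17.0).

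Named genes were EXA1, the 10 largest interactions of each sign among called genes with a symbol, at least 5 CPM in the highest group and 1 sign in all 12 fits without a library, the 3 largest per class, up to 3 called members per list, and 14 markers. AT3G09200 and COR47 were chosen after their values were seen. Alternatives were DESeq2 1.42.0, limma-trend (limma 3.58.1) on log2(FPKM + 1) and log2(FPKM + 0.1), RLE size factors, no filter, all 24 libraries, a fit without organelle genes, fits without 1 library each, and the replicate number as a block.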

Additional observations from a re-analysis of the deposited data

Results flagged for a closer look

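The interaction tests by itself whether 2 genotypes differ under the same contrast, and 347 genes passed it, of which 30 were chosen by the rule for named genes. COR47 at 0.56 and AT3G09200 at -0.39 also passed. Among the named genes the response in exa1 exceeded that in WT by a log2 interaction of 4.98 for RLP21, a fitted value that depends on the prior count because exa1 had no read at 23 °C, and by 2.27 for MLO7, 1.67 for XRCC3, 1.39 for BGLU33, 1.32 for ABCC7, 1.29 for ASY1, 1.28 for AAP4 and 1.26 for ENODL16. Smaller differences of the same sign were 1.21 for MYB48, 1.2 for KAT1, 1.16 for HAI1, 1.02 for STZ, 0.83 for EIR1, 0.76 for GolS1 and 0.66 for Hsp89.1. The response in exa1 fell short of that in WT, at a log2 interaction of -3.25 for MAKR6, -2.53 for NUDT6, -2.51 for BGL2, -2.41 for XPL1, -1.5 for HB30 and -1.47 for WRKY72. The other negative values were -1.38 for KUF1, -1.37 for RLP19, -1.32 for BBX15, -1.3 for GSTU2, -1.0 for JAZ6, -0.95 for AT4G21870, -0.63 for RD22, -0.56 for TPS11 and -0.48 for LHCB5. Groups of 3 libraries were not searched for a single value far from the rest. Calls numbered 1481 without WT replicate 3 at 39 °C and 610 without exa1 replicate 1 at 39 °C, and fewer than 347 without any 1 of the other libraries.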

How the results depend on the processing

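The number of interaction calls, 347 in edgeR with 216 at the heat level, 41 at the unstressed level and 12 distinct list members, depended on the tool and the libraries. With all 24 libraries in 1 fit the 4 numbers were 2154, 1314, 327 and 55, and with DESeq2 834, 504, 116 and 28. On FPKM values limma-trend gave 161, 68, 45 and 8 with a pseudocount of 1, and 100, 60, 14 and 2 with 0.1. Leaving out each library in turn gave 85 to 1481 calls, 53 to 1078 at the heat level, 8 to 104 at the unstressed level and 1 to 43 list members, and the cause was not tested. Of the 347 calls, 343 were also called by DESeq2 and 310 of them with RLE size factors, which gave 352 calls in all. The share of calls with a more positive response in exa1 was 51.9% in the reported fit, 63.1% with RLE, 61.8% with DESeq2, 59.4% with all 24 libraries, 45% with limma-trend at a pseudocount of 0.1 and 58.4% at 1, and 47.7% to 65.9% without 1 library. It was below 50% without exa1 replicates 1 and 2 and without WT replicate 2 at 23 °C (47.7%, 49.4% and 48.5%). RLE size factors moved the median interaction of all genes to 0.01, against -0.02 under TMM. Without a filter there were 486 calls, and without organelle genes 347.

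With the replicate number as a block there were 299 calls, 269 of them shared, 187 at the heat level, 38 at the unstressed level and 11 list members. Same-numbered libraries correlated between -0.07 and 0.144 in their deviations from the group means, and 2 of 12 libraries correlated best with 1 of their own number, so the numbers were not taken as pairs. The widest values were between differently numbered libraries at 39 °C. They were 0.196 for WT replicate 3 with exa1 replicate 2 and -0.164 for WT replicate 1 with exa1 replicate 2, and their cause was not tested. Under the block ASY1 (adjusted p = 0.0522), GSTU2 (0.0667) and TPS11 (0.0635) no longer passed in edgeR, and under RLE GSTU2 (0.0514), LHCB5 (0.0507) and TPS11 (0.0557). Among the named calls 12 of 30 passed with limma-trend at a pseudocount of 0.1 and 11 at 1. Reversed signs occurred only in genes without a call: limma-trend with a pseudocount of 1 gave 0.07 for HSP21 and -0.06 for Hsp70-2, and leaving out a library gave -0.06 to 0.25 for MBF1C, below 0 in 4 of 12 fits. IAA29 passed with limma-trend at a pseudocount of 1, at 1.15 (adjusted p = 0.00634).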

Other observations

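The following groups were chosen after their values were seen, and are given as values without a test of the group. B-box zinc finger genes, whose products act in light signalling and flowering, were mostly below 0 in interaction. Of 26 tested of 30 annotated, 4 passed with a more negative response in exa1 and 0 with a more positive one, beside 1.64% of all genes called, and 23 lay below 0 with a median of -0.34. BBX14, close kin of BBX15, had 20.2, 15.5 and 19.95 CPM in exa1 and 41, 34.3 and 27.8 CPM in WT at 39 °C and 296, 317 and 293 CPM in exa1 and 280.4, 272 and 267 CPM in WT at 23 °C, an interaction of -1.04 (adjusted p = 0.00418, edgeR). BBX17 had 3.09, 4.48 and 3.9 CPM in exa1 and 7.87, 7.16 and 5.05 CPM in WT at 39 °C, with an interaction of -1.05 (adjusted p = 0.0176, edgeR). COL3 passed at -0.57 (adjusted p = 0.0235, edgeR).

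Abscisic acid receptors bind the hormone in the cell. Of 9 receptor genes tested, 3 passed with a more negative response in exa1, PYR1 at -0.59, PYL4 at -0.64 and PYL5 at -0.63 (adjusted p = 0.047, 0.0126 and 0.0392, edgeR), and 0 with a more positive one. Of all genes tested 1.64% were called, and 7 of the 9 receptor genes lay below 0 and 2 above. PYL4 had 64.5, 53.5 and 66.9 CPM in exa1 and 102, 99.9 and 94.6 CPM in WT at 39 °C and 61.5, 60.5 and 67.6 CPM in exa1 and 63.6, 64.8 and 66.5 CPM in WT at 23 °C. Of 11 genes known from guard cells, KAT1 at 1.2, the anion channel ALMT12 at 0.92 and the cation exchanger CHX20 at 0.83 passed with a more positive response in exa1. The median was 0.62, with 9 of the 11 above 0 and 2 below. ALMT12 had 14.4, 20.1 and 17.9 CPM in exa1 and 10.2, 12.8 and 13.3 CPM in WT at 39 °C and 5.18, 4.29 and 4.26 CPM in exa1 and 4.99, 6.33 and 6.64 CPM in WT at 23 °C, and its adjusted p was 0.0447 by edgeR, against 0.0285 for CHX20. Among 10 plasma membrane proton pumps, HA2 at 0.45 and HA3 at 0.70 passed, and 8 lay above 0 and 2 below. Whether the number of guard cells differed was not tested.

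A second nudix hydrolase, NUDT7, the ADP-ribose and NADH hydrolase that restrains immune responses, passed beside NUDT6 among 17 tested, where 1.64% of all genes were called. Of the 17, 10 lay below 0 in interaction and 7 above. NUDT7 had 42.5, 36.6 and 39 CPM in exa1 and 99.7, 119 and 108 CPM in WT at 39 °C and 17.1, 18.8 and 18.1 CPM in exa1 and 22.3, 27.1 and 23.9 CPM in WT at 23 °C, an interaction of -1.02 (adjusted p = 0.00168, edgeR). On chromosome 4, 9 neighbouring genes with locus names from AT4G22470 to AT4G22520 were tested, all with an interaction above 0 and a median of 1.06. Of these, AT4G22475, AT4G22485, AT4G22490 and AT4G22517 passed, at 1.57, 1.48, 0.92 and 1.31, several of them annotated as lipid transfer proteins. Copies in such a cluster can share reads, so their separate values are uncertain.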
